A study of Mus musculus with 4 samples.

Results

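Expression of 10 genes of the intestinal crypt was followed in mouse caecum: the stem cell genes Lgr5, Ascl2, Smoc2, Olfm4 and Lrig1, and Axin2, Sox9, Ephb2, Ephb3 and Cd44, which are known as targets of Wnt signalling there. The genes were chosen by name, as probe sets annotated with that single symbol, out of 22180 genes on the array. Such a probe set was found for 9 of the 10, and Ephb2 had none in the annotation used. Of these 9 genes, 4 (Lgr5, Sox9, Lrig1 and Cd44) stood above background on all 4 arrays, Ephb3 did on 1, and Ascl2, Axin2, Smoc2 and Olfm4 on none. No gene of the set was called different for genotype or for prebiotics over both genotypes, and the widest spread over the 4 arrays was that of Lrig1.

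The caecal epithelium is renewed from stem cells at the base of the crypts. Wnt ligands and R-spondins, sent largely by the stroma below, act on Frizzled, LRP and LGR receptors and stabilise beta-catenin, which with TCF and LEF factors switches on target genes in stem and progenitor cells. Target genes include the programme of the stem cell itself, brakes on the pathway such as Axin2, and the EphB receptors that keep cells at their place along the crypt.

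The arrays measured caecal tissue of C57Bl/6 mice aged 21 weeks, and every group, controls included, was fed chow lacking n-3 polyunsaturated fatty acids (n-3 PUFA depleted-diet). The 4 groups were wild type (WT) without prebiotics, WT with prebiotics, apoE knock-out (KO) without prebiotics and KO with prebiotics, the prebiotic being Orafti®P95, an oligofructose fermented by gut bacteria, at 250 mg per mouse per day for the last 15 days. Each group was 1 array of RNA pooled from 6 mice that had been selected on RNA quality, so no value has a replicate of its own group and the spread between mice is not seen. Title, source name and treatment of each WT array give 1 diet and its description gives the other; the WT arrays are therefore called by their titles, and a difference between them has its sign only as titled. Where a pair of values is given for a genotype, the array without prebiotics comes first and the array with them second. In whole tissue, fewer cells of a type and less RNA per cell cannot be told apart.

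Values are log2 expression from RMA, and the median of all probe sets was 2.92 to 2.93 on the 4 arrays. A value less than 1 log2 unit above that median was taken as near background. Apoe, the targeted gene, had 3.90 and 4.09 in WT and 2.83 and 3.13 in KO, so each KO value lay below each WT value. It is not known here whether this probe set covers the deleted part. All 10 general epithelial markers stood above background, with Epcam, an epithelial adhesion molecule, at 10.10 to 10.33. The mucin gene Muc2 of goblet cells had 11.96 to 12.18. Of 7 colon markers 6 stood above background on at least 1 array, as did 9 of 11 ileal markers.

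Lgr5 encodes the R-spondin receptor that marks crypt base stem cells. Its values were 4.25 and 4.65 in WT, without and with prebiotics as titled, and 4.33 and 4.55 in KO. Both arrays titled with prebiotics lay above both without. A second Lgr5 probe set had 2.65 to 2.86, below the median of the array on each of the 4, and did not follow the first.

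Ascl2, the transcription factor that maintains the Lgr5 stem cell state, had 2.66 and 2.91 in WT and 3.02 and 2.86 in KO. Olfm4, a secreted glycoprotein that marks stem cells of the small intestine in mice, had 2.78 to 2.91 over the 4 arrays. Both genes thus lay near the array median in every group. Paneth cells, the neighbours of stem cells in the small intestine, have markers that were high on 1 array: lysozyme 1 (Lyz1) had 6.02 on the KO array with prebiotics and 3.68 to 4.13 on the other 3, while Olfm4 was at 2.91 on that array.

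Smoc2, a matricellular protein of the crypt base, had 3.67 on the WT array titled without prebiotics. On the other 3 arrays it lay within 0.02 log2 units, between 3.34 and 3.36. All 4 values were near background.

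Lrig1, a transmembrane protein that restrains ErbB receptors and marks stem cells, had 4.30 and 5.00 in WT as titled. In KO it had 4.99 without and 4.59 with prebiotics. The order of the diets was thus opposite in the 2 genotypes as titled. Its range of 0.69 was wider than that of 94.5% of the 13083 genes measured over the 4 arrays, for which the median range was 0.30.

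Axin2, a scaffold of the beta-catenin destruction complex and a feedback target of the pathway, had 3.36 and 3.60 in WT and 3.35 and 3.59 in KO. The difference was nearly the same size in both genotypes, but all 4 values were near background. A second Axin2 probe set, at 2.64 to 2.89, went the other way in KO, from 2.89 without to 2.64 with prebiotics.

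Sox9, a transcription factor of crypt progenitors and Paneth cells, had 4.60 and 4.85 in WT and 4.63 and 4.73 in KO. Its order over the arrays was that of Lgr5, over a narrower range of 0.25. Markers of enteric glia and neurons, cells that also use SOX-family factors, stood near background on all arrays for 8 of 8 genes, Sox10 among them at 2.56 to 3.02.

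Ephb3, a receptor for ephrin-B ligands that helps to order cells along the crypt, had 4.09 on the WT array titled without prebiotics. The other WT array had 3.72, and the KO arrays had 3.71 and 3.70. Only the first of these was above background, and the other 3 lay within 0.01 of each other.

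Cd44, the hyaluronan receptor and a Wnt target in crypt cells, also made by leukocytes and stromal cells, had 6.58 and 6.65 in WT and 6.81 and 6.54 in KO. The highest value was on the KO array without prebiotics, and the other 3 lay close together.

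**Figure D1:**
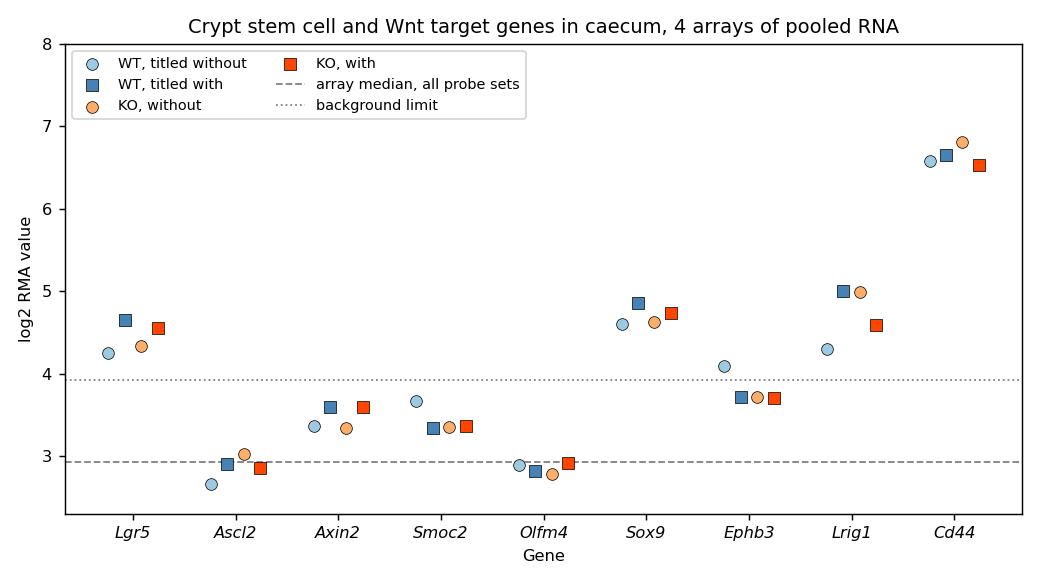
Log2 RMA value (y axis) of each gene with a single-symbol probe set (x axis) on the 4 arrays; each point is 1 array of pooled RNA, circles without and squares with prebiotics (WT as titled), the dashed line the mean of the array medians and the dotted line the background limit 1 log2 unit above it. Lgr5, Sox9, Lrig1 and Cd44 lie above the dotted line on all 4 arrays, and Ascl2 and Olfm4 lie near the dashed line; heights of different genes are not comparable, since each probe set binds its target differently.

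The WT array titled without prebiotics was the highest or the lowest of the 4 for 6 of the 8 genes that passed the filter on low values. It was so for 52.6% of all genes, so this share was not far from that of the array at large. For Ephb3, Smoc2 and Lrig1 its distance to the nearest other array was 0.38, 0.31 and 0.29. Over the other 3 arrays Ephb3 and Smoc2 ranged over 0.01 and 0.02, and Lrig1 over 0.41.

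In KO mice, prebiotics were compared with none, 1 pool against 1 pool, with labels that do not conflict and with no test. Lrig1 had a log2 difference (with minus without) of -0.40 and Cd44 one of -0.28. Axin2 had 0.25, Lgr5 0.22 and Sox9 0.10, while Smoc2 and Ephb3 had 0.00 and -0.01. Ascl2 had -0.16 and Olfm4, which failed the filter, 0.13. None of the 8 genes measured reached a 1.5-fold difference, against 3.78% of 12216 genes (2.63% higher and 1.15% lower).

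The median over the 8 was 0.00, beside 0.04 over all genes. Markers of other cell types differed on the same pair of arrays. Ptprc (CD45), present on all leukocytes, had 5.76 without and 4.48 with prebiotics. Of 12 leukocyte markers measured 5 were higher and 7 lower, with a median difference of -0.23. The mean log2 value of 13 leukocyte markers was 3.69 and 3.35, with 4 of the 13 above background on any array. Moesin (Msn), which links CD44 to the actin cortex, had 6.59 and 5.98. The part of leukocytes in the Cd44 difference was not tested. Of 10 general epithelial markers 6 were higher and 4 lower with prebiotics, with a median difference of 0.17; Epcam had 10.10 and 10.33. The colonocyte carbonic anhydrase Car4 had 7.92 and 8.64. The mean log2 value of 11 ileal markers was 5.28 and 6.54, and that of 9 Paneth cell markers 2.99 and 4.86. The part of these epithelial cell types in the Lgr5 and Axin2 differences was not tested.

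In WT, the array whose title gives prebiotics was set against the other, again with no test. Lrig1 was 1.62-fold higher (log2 difference 0.69), the only 1 of 7 genes measured past 1.5-fold, against 3.18% of 12223 genes (2.07% higher and 1.11% lower). Lgr5 had 0.40, Sox9 0.25, Axin2 0.24 and Cd44 0.06. Ephb3 had -0.38 and Smoc2 -0.33. Ascl2 (0.24) and Olfm4 (-0.07) failed the filter here. The median over the 7 genes was 0.24, beside 0.02 over all genes. On the same pair, 5 of 7 enteroendocrine, 4 of 10 ileal and 3 of 9 colonocyte markers measured were past 1.5-fold higher, and smooth muscle markers were lower for 12 of 12, with 1 past 1.5-fold. Their part in the differences of the crypt genes was not tested. Read by the descriptions, every one of these signs turns. At a limit of 2-fold, 0 of the 7 genes passed.

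**Figure D2:**
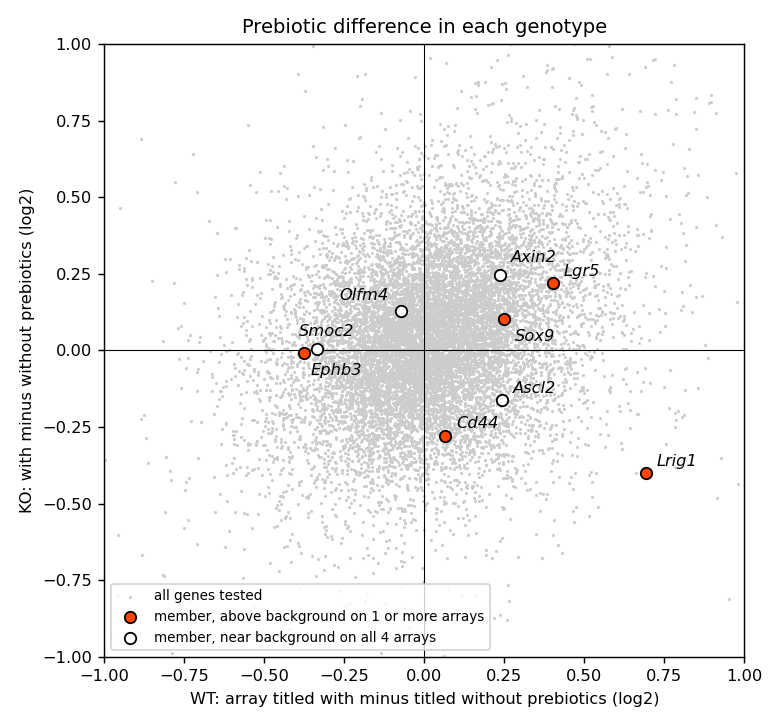
Log2 difference of the WT array titled with minus the WT array titled without prebiotics (x axis) against KO with minus KO without prebiotics (y axis); grey points are the 13083 genes measured, of which 114 lie outside the axes, filled circles are genes of the set above background on 1 or more arrays and open circles those near background on all 4. Lgr5, Axin2 and Sox9 lie in the quadrant of higher values in both genotypes, and Lrig1 lies at 0.69 and -0.40.

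Over both genotypes, prebiotics were tested with limma in a model with genotype, with WT grouped by title and 1 residual degree of freedom. The largest difference in the set was that of Lgr5, with 4.60 ± 0.07 (SD, n = 2 arrays) with and 4.29 ± 0.06 without prebiotics. Its difference was 0.31 (SE 0.14), or 1.24-fold, and did not pass (limma adjusted p = 0.361). Axin2 had 0.24 (SE 0.13, limma adjusted p = 0.480) and Sox9 0.18 (SE 0.14, limma adjusted p = 0.638). For Lgr5, Axin2 and Sox9 both arrays titled with prebiotics lay above both others, 3 of 8 genes against 25.5% of all genes, so the share was near that of the array at large. No gene of the set had both arrays titled with prebiotics below the others, against 17.4% of all.

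Ephb3 had -0.19 (SE 0.15), Smoc2 -0.16, Cd44 -0.11, Lrig1 0.15 (SE 0.22) and Ascl2 0.04. limma called 0 of the 8, against 1.25% of 13083 genes called (0.994% higher and 0.26% lower). At an unadjusted p under 0.05 there was 1 of the 8 (Lgr5), against 13.8% of all genes, a share near that of the array at large. With the WT pair exchanged, Lgr5 had -0.09, Sox9 -0.07, Lrig1 -0.55, Ascl2 -0.20, Ephb3 0.18 and Smoc2 0.17, so the direction of these 6 genes rests on the titles. Axin2, at 0.01, and Cd44, at -0.17, kept their sign. With the mean over each gene's probe sets, Lgr5 had 0.13 and Axin2 0.10.

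The KO arrays were compared with the WT arrays to ask what loss of apolipoprotein E, the ligand that clears lipoprotein remnants, goes with in the caecum. The WT mean does not depend on the conflict of the labels. Lgr5 was at 4.44 ± 0.16 (SD, n = 2 arrays) in KO and 4.45 ± 0.28 in WT, a difference of -0.01 (SE 0.18). Axin2 had -0.01 (SE 0.15) and Sox9 -0.05 (SE 0.15). These 3 differences were smaller than the spread between the diets of 1 genotype. Ephb3 had -0.20 (SE 0.16), Ascl2 0.16 (SE 0.14), Smoc2 -0.15 (SE 0.15), Lrig1 0.14 (SE 0.25) and Cd44 0.06 (SE 0.15). Olfm4, which failed the filter, had 0.00.

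limma called 0 of the 8 genes for genotype, with 0 at an unadjusted p under 0.05 and an adjusted p of 0.999 for each. The call rate over all genes was 0%, with 3.29% at an unadjusted p under 0.05. Apoe, the targeted gene, was itself not called, with a difference of -1.02 (SE 0.16, limma adjusted p = 0.782). The absence of calls therefore does not show that the crypt genes were unchanged. Ephb3 was the only gene of the 8 whose KO arrays both lay below both WT arrays, against 14% of all genes, and by a margin of under 0.01; none had both KO arrays above, against 16.2%. The smallest two-sided p that an exact permutation of 2 against 2 arrays can give is 0.33.

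By diet as titled, the KO minus WT difference of Lrig1 was 0.69 without prebiotics and -0.41 with them, so its mean genotype difference joins opposite signs. Cd44 had 0.23 and -0.11 in the same comparisons. Ephb3 had -0.38 without and -0.01 with prebiotics, and Smoc2 -0.32 and 0.02. With the WT pair exchanged, Lrig1 had -0.01 without and 0.29 with prebiotics. None of these has a test, since a model with the interaction leaves 0 residual degrees of freedom.

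The pathway around these genes was followed with 10 lists of 143 genes in all, 136 of them with a probe set and 103 measured over the 4 arrays. For prebiotics as titled, limma called 2 of the 103 higher and 0 lower, against 0.994% of all genes higher and 0.26% lower. The share was thus not far from that of the array at large. The first was epiregulin (Ereg), a growth factor for the EGF receptor on crypt cells, with 5.17 and 6.14 in WT and 5.10 and 6.21 in KO. Ereg rose by 1.04 (SE 0.13, limma adjusted p = 0.00683). The other was Bmp2, a BMP ligand of the surface epithelium that opposes stem cell character, with 4.37 and 5.22 in WT and 4.53 and 5.31 in KO. Bmp2 rose by 0.81 (SE 0.13, limma adjusted p = 0.0229).

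For both genes the arrays titled with prebiotics lay clear of the others in each genotype. With the WT pair exchanged Ereg had 0.07 and Bmp2 -0.03, and neither was called. Bmp2 was also not called without the filter (limma adjusted p = 0.0533) or without the trend of variance on level (0.0697), and Ereg was not with the mean over its probe sets (0.57, limma adjusted p = 0.0738). On the same arrays Car4 rose by 0.59 (SE 0.10, limma adjusted p = 0.0235), and 5 of 9 colonocyte markers were called higher and 0 lower, against 0.994% of all genes higher. Of the ileal markers 4 of 10 were called higher (median 0.91) and of the enteroendocrine markers 3 of 7 (median 0.65), while 3 of 12 smooth muscle markers were called lower, against 0.26% of all genes. With the WT pair exchanged, 0 of 13083 genes were called, so these marker calls rest on the titles as well. The part of these cell types in the Ereg and Bmp2 differences was not tested.

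Of the Wnt ligands, 0 of 11 stood above background on any array. Among R-spondins and Wnt receptors this was so for 6 of 17, and 0 of 14 measured were called for prebiotics. Lgr4, the widely expressed relative of Lgr5, had 7.94 and 8.26 in WT and 8.08 and 8.39 in KO. As titled, both pairs differed the same way, and the difference of 0.32 (SE 0.09) did not pass (limma adjusted p = 0.143). With the WT pair exchanged, Lgr4 had -0.01.

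In the list of the destruction complex and transcription factors 0 of 16 were called for prebiotics as titled, with a median of 0.09 beside 0.02 over all genes. Dvl3, which relays the signal from Frizzled, had 0.36 (limma adjusted p = 0.194), and Tcf7l2, the main TCF factor of the gut epithelium, had 0.28. Of 10 antagonists and feedback inhibitors 0 were called, and 3 of the 15 with a probe set stood above background. Nkd1, a feedback inhibitor, had -0.32 as titled, near background on all arrays. Its values were 3.08 and 2.66 in WT as titled and 3.21 and 2.98 in KO.

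Other gut Wnt targets (0 of 12 called) had a median of -0.03 for prebiotics, with 5 higher and 7 lower. As titled, Cdca7 had -0.33 and the cyclin Ccnd1 -0.26, opposite in sign to Lgr5 and Axin2. Lgr4, also in this list, had the sign of Lgr5 and Axin2 (0.32). Ccnd1 was lower in both pairs as titled (-0.355 in KO and -0.169 in WT). With the WT pair exchanged, Lgr5 itself turned to -0.09 and Axin2 had 0.01, so this contrast holds only as titled. Of 10 other markers of the crypt base and reserve stem cells 0 were called. Reg4, which marks the secretory cells between stem cells at the colonic crypt base, had 11.71 and 11.54 in WT as titled and 11.72 and 11.34 in KO, a difference of -0.27 (SE 0.06) that did not pass (limma adjusted p = 0.0573). Aqp4, a water channel, had -0.13 in the KO pair and 0.81 in the WT pair as titled.

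Of the Notch list 0 of 9 were called for prebiotics as titled, and of 10 EphB and ErbB genes measured Ereg was the only one. Efnb2, an ephrin ligand of EphB receptors, had 0.34 (SE 0.09, limma adjusted p = 0.105). Nrg1, a ligand of the ErbB receptors that LRIG1 restrains, had 6.27 and 6.82 in WT as titled and 6.62 and 6.11 in KO. As for Lrig1, the signs as titled were opposite in the 2 genotypes: -0.51 in the KO pair and 0.54 in the WT pair. Read by the descriptions, the WT sign turns, and Nrg1 was lower with prebiotics in both genotypes. Of 7 CD44 ligands and partners 0 were called and 6 were lower, with Msn at -0.40 (limma adjusted p = 0.22).

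For genotype, limma called 0 of the 103, with 3 at an unadjusted p under 0.05. Over all genes these rates were 0% and 3.29%, so the pathway lists did not stand out from the array. The ubiquitin ligase Znrf3, which removes Frizzled receptors, had 3.88 and 4.36 in WT as titled and 4.64 and 4.42 in KO, a difference of 0.41 (SE 0.19, limma adjusted p = 0.999). The cyclin-dependent kinase Cdk6 had 0.39 (SE 0.14, limma adjusted p = 0.999). Proliferation genes were lower on the KO arrays for 20 of 22, with a median of -0.20 beside 0.01 over all genes and 0 called; Cdc20 had -0.45 and Plk1 -0.44. On the same arrays smooth muscle markers were higher for 12 of 12 (median 0.32) and fibroblast markers for 10 of 11 (median 0.24). Paneth cell markers were higher for 7 of 7 (median 0.98). In each of these lists 0 were called. The mean log2 value of 9 Paneth cell markers was 3.18 and 2.91 in WT as titled and 2.99 and 4.86 in KO. Their higher KO mean thus came from the array with prebiotics, and 4 of the 9 stood above background on any array. The part of these cell types in the lower values of the proliferation genes was not tested. The mean log2 value of the proliferation genes was lower on each KO array than on each WT array, and lowest on the KO array with prebiotics. With prebiotics 18 of 22 were lower in the KO pair (median -0.16). In the WT pair as titled 11 were higher and 11 lower (median -0.03). Over both genotypes as titled 16 of 22 were lower (median -0.13), with 0 called. The part of the diet in their genotype difference was not tested. For genotype, the median of the 8 crypt genes was -0.01.

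**Figure D3:**
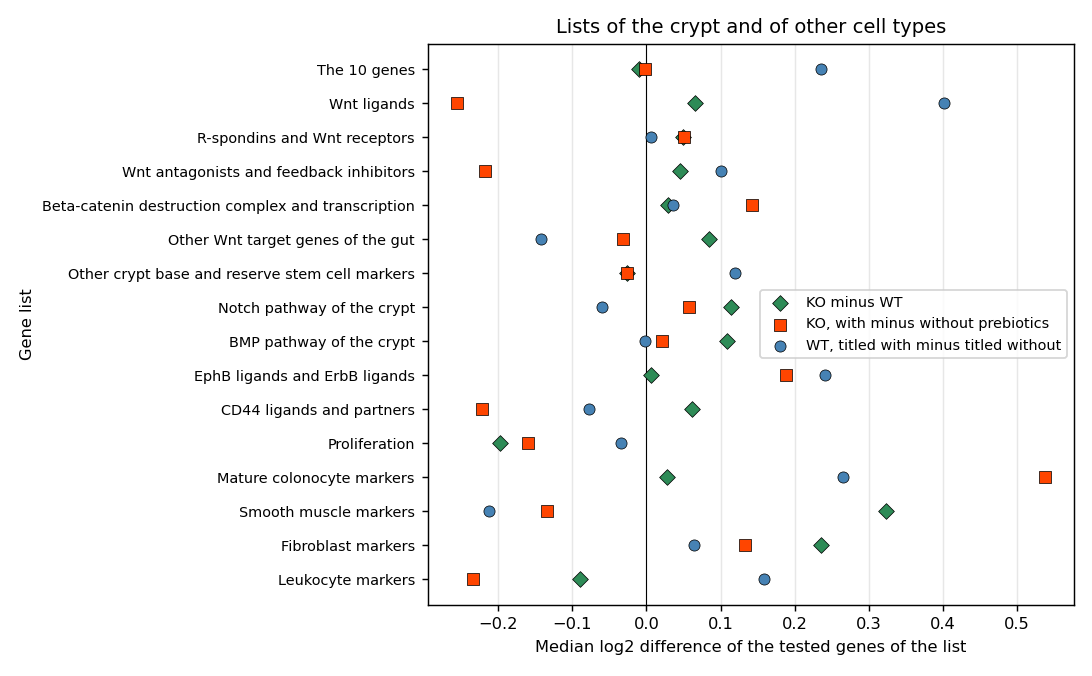
Median log2 difference (x axis) of the measured genes of each list (y axis) in 3 comparisons: KO minus WT (diamonds), KO with minus without prebiotics (squares) and WT titled with minus titled without (circles, signs as titled). The measured crypt genes sit at -0.01, 0.00 and 0.24, and colonocyte markers at 0.54 in the KO pair; medians of short lists such as the Wnt ligands rest on 3 or 4 genes near background.

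No gene of the set spanned 2-fold over the 4 arrays, so no genes of like pattern were sought. In RefSeq promoter windows of GRCm38.p6, from 250 bases before to 50 after a start site, 7 of the 10 genes were listed. That site need not be the first base of the gene: the Axin2 window began at base 108920099 of chromosome 11, and the gene at 108917828. The core letters of a TCF site, CTTTGA or CTTTGT on either strand, were found in 0 of these 7 windows and in 31.2% of the 32851 windows listed for all genes. This says only that these letters are not in those windows.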

How the data were processed

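The authors deposited log2 values made with Affymetrix Expression Console and RMA, per the submitters' processing notes, which name no version. RMA subtracts background and brings arrays to a common distribution, which compresses differences near background. That the log base is 2 was inferred from RMA, and the genome build is not given in the sources used here. The number of arrays limits the precision.

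Of 41345 probe sets, 23521 had 1 symbol, 1814 several and 16010 none. A gene with several was represented by the one with the highest mean. A gene was measured if it reached the median of single-symbol probe sets on at least 1 array compared; 8 of the 10 genes passed over 4 arrays. limma 3.58.1 under R 4.3.3 (lmFit, eBayes with trend) was fitted over all genes, with Benjamini-Hochberg adjusted p under 0.05 called; genotype leaves 2 residual degrees of freedom, and its error holds the diets. Pairs of single arrays have no test, and 1.5-fold was the limit. p-values measure only the spread between these pooled arrays. The fits were also run on simulated data with the same noise for every gene, which checks the code and not the power on these arrays.

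The named genes were the 10, Apoe, up to 3 of the largest differences per list and comparison, and fixed cell markers. Genes and lists were chosen with earlier results of these data known. Alternatives changed the filter, probe set summary, normalization, eBayes trend, diet terms, fold and background limits, or left out an array.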

Additional observations from a re-analysis of the deposited data

Results flagged for a closer look

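Lrig1 differed between the genotypes in its prebiotic difference: KO with minus without prebiotics was -0.40, the WT pair as titled was 0.69, and the first minus the second was -1.09. The difference was not tested, since 1 array per group leaves no residual degrees of freedom. With the WT pair exchanged, both genotypes were lower with prebiotics, and the difference was 0.29.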

How the results depend on the processing

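For genotype, prebiotics over both genotypes and prebiotics in KO, 0 genes of the set were called under every alternative run. In the WT pair the count was 1, and 0 at a limit of 2-fold. Near background on all 4 arrays were 4 genes of the set, 2 at a limit of 0.5 log2 units (Ascl2 and Olfm4) and 7 at 2. With the WT pair exchanged, prebiotic differences over both genotypes turned sign for Lgr5 (-0.091), Ascl2 (-0.20), Smoc2 (0.17), Sox9 (-0.074), Ephb3 (0.18), Lrig1 (-0.55) and Bmp2 (-0.033). For genotype, with each array left out in turn, differences that changed sign ranged from -0.21 to 0.19 for Lgr5, -0.14 to 0.11 for Axin2, -0.31 to 0.021 for Smoc2, -0.17 to 0.076 for Sox9, -0.21 to 0.49 for Lrig1 and -0.078 to 0.20 for Cd44, with 0 called; those that kept their sign ranged from -0.38 to -0.0079 for Ephb3 and 0.033 to 0.28 for Ascl2; the lowest Lgr5, Sox9, Lrig1 and Ascl2 values and the highest Smoc2 and Ephb3 values came without the WT array titled without prebiotics. Over all genes, genotype calls (0) were 12 with diet as titled as a block and 0 with the pair exchanged, and ranged from 0 to 6 with an array left out. Prebiotic calls (164) were 85 without the filter, 25 without the trend and 0 with the pair exchanged; at 2-fold 75 genes passed in KO and 63 in WT against 462 and 389 at 1.5-fold. The causes were not tested. The labels give no replicate numbers to pair arrays by, so the blocks fitted were diet, for genotype, and genotype, for prebiotics. Leaving out an array from the prebiotic model leaves 0 residual degrees of freedom, so it was not run.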
